A study of Mus musculus with 12 samples.

Results

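Vegfa, Vegfb and Vegfc, the genes for 3 secreted vascular endothelial growth factors, and Flt1, the gene for the receptor VEGFR-1, were measured in the healing callus of the broken mouse femur. These 4 genes were chosen by name from the 188 genes on the arrays. All 4 have 1 spot each on a focused membrane for angiogenesis genes, and Vegfa has another spot on a membrane for hypoxia genes, which gives 5 of the 212 gene spots of the 2 array types. Callus RNA came from 7, 10 and 14 days after a fixed closed fracture. One group of mice was WT and the other HET for HIF-1a, described by the series title as partly deficient in HIF-1alpha. The sources used here do not say how the HET allele was made, nor in which strain or at which age. Each sample was a pool of equal amounts of RNA from 3 animals, and each genotype and day had 1 array of each type, so every value below is that of 1 pool on 1 array.

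VEGF-A drives the sprouting of new vessels, mainly through the receptor VEGFR-2, which Kdr encodes, and hypoxia raises its transcription through HIF-1. VEGF-B binds VEGFR-1 and not VEGFR-2, and VEGF-C acts mostly on lymphatic endothelium through VEGFR-3. VEGFR-1 binds VEGF-A and VEGF-B tightly, signals weakly, and in its soluble form holds ligand back. In a fracture callus, vessels grow into the cartilage as bone replaces it, and cartilage and bone cells are known sources of VEGF-A.

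The stretches just upstream of the 4 genes are shown because the study varies the dose of a transcription factor, HIF-1, that reads a short core motif. Each is the 250 bases before the gene's start in the RefSeq promoter table (GRCm38.p6), 5′ to 3′ on the gene's own strand. Capitals mark the HIF core motif, searched as ACGTG and GCGTG, and the GC box GGGCGG, each on both strands. Matches may overlap each other. Vegfa lies at chr17:46032378-46032627 on the minus strand, Vegfb at chr19:6987652-6987901 on the minus strand, Vegfc at chr8:54077282-54077531 on the plus strand and Flt1 at chr5:147726012-147726261 on the minus strand.
Vegfa: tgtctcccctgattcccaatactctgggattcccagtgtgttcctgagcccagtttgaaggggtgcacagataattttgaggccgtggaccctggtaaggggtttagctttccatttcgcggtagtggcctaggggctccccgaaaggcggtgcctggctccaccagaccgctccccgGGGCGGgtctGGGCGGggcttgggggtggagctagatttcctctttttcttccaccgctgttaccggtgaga
Vegfb: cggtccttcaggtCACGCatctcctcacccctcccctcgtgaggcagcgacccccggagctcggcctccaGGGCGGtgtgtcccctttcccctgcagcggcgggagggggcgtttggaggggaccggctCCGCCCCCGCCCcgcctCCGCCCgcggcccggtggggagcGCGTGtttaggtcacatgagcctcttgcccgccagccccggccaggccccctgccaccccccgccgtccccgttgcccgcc
Vegfc: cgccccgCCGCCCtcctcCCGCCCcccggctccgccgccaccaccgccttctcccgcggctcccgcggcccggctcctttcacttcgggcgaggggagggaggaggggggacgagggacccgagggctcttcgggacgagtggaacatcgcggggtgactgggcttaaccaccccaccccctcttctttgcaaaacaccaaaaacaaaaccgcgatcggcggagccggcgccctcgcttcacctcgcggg
Flt1: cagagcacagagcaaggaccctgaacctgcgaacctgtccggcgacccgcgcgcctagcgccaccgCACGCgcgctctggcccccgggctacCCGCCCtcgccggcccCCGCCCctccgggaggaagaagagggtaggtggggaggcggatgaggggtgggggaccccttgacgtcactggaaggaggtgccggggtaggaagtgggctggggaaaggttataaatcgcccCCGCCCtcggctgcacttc

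The letters ACGTG occurred in 0 of the 4 windows and in 16.6% of all 32851 windows of this length in the table. GCGTG occurred at 2 places before Vegfb, at 1 before Flt1 and at 0 before Vegfa and Vegfc, and 28.2% of all windows hold it. The GC box occurred at 2 places before Vegfa, 4 before Vegfb, 2 before Vegfc and 3 before Flt1, against 32.7% of all windows with at least 1. The Flt1 start that the table uses lies 427 bases inside the outermost start of the gene in the annotation. A match is only a run of letters, and its absence from 250 bases says nothing about sites elsewhere.

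The arrays differed widely in brightness. A gene was taken as above background where its spot was brighter than the brightest of the 6 control spots of its array, which hold PUC18 plasmid DNA or nothing. By that rule the angiogenesis arrays showed 9 and 12 of 100 genes at day 7 (WT, then HET), 76 and 91 at day 10, and 79 and 44 at day 14. The hypoxia arrays showed between 20 and 56. Spots of 45701 or more, 90% of the highest density seen (50779), were called at the ceiling. Hif1a itself was above background on all 12 arrays. Its density on the angiogenesis arrays was 8037, 11450 and 11008 for WT and 25140, 6924 and 6574 for HET in order of day. The day 7 array labelled HET thus had the brighter Hif1a spot. Only 2 of 100 genes were dimmer there than in WT, but 88 were below background on both arrays. Over the 12 others the median log2 ratio of HET to WT density, with 25.9 added to each, was 0.56. On the hypoxia arrays Hif1a was at 137 in WT and 5509 in HET at day 7, where that median was 2.27 over 28 genes. At days 10 and 14 it was at 30822 and 15394 in WT and at 18939 and 4766 in HET. Where the Hif1a probe lies against the allele is not known here, and WT and HET below are the names on the labels. Among endothelial markers, 0 of 7 were above background at day 7. At day 10 WT had 5 and HET 7, and at day 14 they had 5 and 2. Their summed density ran from 260.0 in WT at day 7 to 20459 in WT at day 10. The bone matrix gene Sparc was above background on all 6 angiogenesis arrays. In pooled tissue RNA, fewer cells of a type and less RNA per cell cannot be told apart.

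Of the 24 values of the 4 genes on the angiogenesis arrays, 12 were above background and 3 at the ceiling. All 8 values at day 7 were below background. Flt1 held all 3 ceiling values, and the 3 ligands held 8 of the values above background, none of them above 4.33% of the highest density. Of the ligands' 6 values at days 10 and 14, 5 were above background in WT and 3 in HET. With 1 threshold for all 6 arrays, set at the highest control spot among these arrays (490), 5 remained in WT and 0 in HET, while that threshold passed 76 and 70 of 100 genes on the WT arrays of days 10 and 14 and 55 and 33 on the HET arrays.

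**Figure D1:**
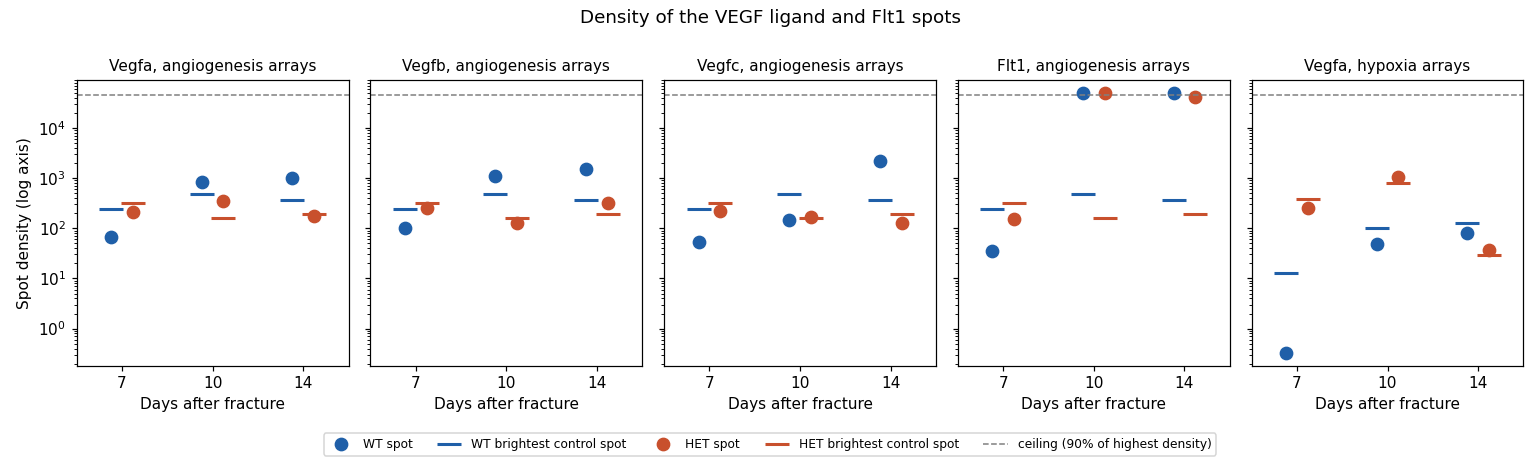
Spot density on a log axis for the 4 genes on the angiogenesis arrays and Vegfa on the hypoxia arrays, by day and genotype (1 spot on 1 array per point), with the brightest control spot of each array as a bar and the ceiling of 45701 as a dashed line. At day 7 every point lies under its bar, and Flt1 alone reaches the ceiling.

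Vegfa on the angiogenesis arrays had a density of 66.9 in WT and 208 in HET at day 7. At that day all 6 control spots of either array were brighter than it. At day 10 the densities were 834 for WT and 350 for HET, and at day 14 they were 1004 and 178. Both WT values lay above background at days 10 and 14, at 1.70 and 2.69 times the brightest control spot. In HET the day 10 value lay at 2.16 times that spot and the day 14 value at 0.937 times, just under it.

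At day 10, where both spots were above background, the WT density was 2.38 times that of HET. Most spots were dimmer in HET at the later days. Without normalization between arrays, Vegfa differed by -1.45 log2 units (HET minus WT) at day 10, against a median of -1.12 over the 93 genes above background on 1 or both arrays, and 36 of these genes lay lower still. At day 14 the HET spot was not above background and the difference is a bound, -2.14 or lower. The differences as measured, without bounds, had a median of -2.04 over 79 genes. On that scale Vegfa was at -2.28, and 35 of the 79 genes lay lower. Ranked by density within its own array, where 1 is the brightest of 100 genes, Vegfa stood at 63 on both day 10 arrays, and at 53 in WT and 47 in HET at day 14. After quantile normalization, which gives all arrays of a type the same distribution, the day 10 difference was 0.00. At day 14 no bound could be given on that scale.

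The second Vegfa spot, on the hypoxia arrays, followed another course. The 3 WT densities were 0.333, 48.6 and 80.2 in order of day, and none was above background. In HET it was 258, 1030 and 36.6, of which the day 10 and day 14 values were above background, at 1.28 and 1.24 times the brightest control spot. At day 10 HET was thus the brighter array on the hypoxia membranes and the dimmer one on the angiogenesis membranes. Quantile normalization put Vegfa at least 0.36 log2 units higher in HET at day 10, and without normalization it was at least 2.77 higher. The differences as measured without normalization, without bounds, had a median of 0.73 over the 60 genes above background on 1 or both of these arrays. Vegfa was at 3.79 on that scale, and 57 of the 60 genes lay lower. At day 14 no bound could be given. The labels do not say whether both membranes received RNA of the same pool, and the 2 types were normalized apart.

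Vegfb, a ligand of VEGFR-1 studied mainly in heart and muscle, stood at 103 in WT and 249 in HET at day 7. In WT its density was 1117 at day 10 and 1526 at day 14, both above background. In HET it was at 125 at day 10, which is 0.768 times the brightest control spot, and at 325 at day 14, which is 1.71 times. WT was thus the brighter array at both later days, by 4.70 times at day 14, where both spots were above background.

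At day 10 the Vegfb difference has only a bound, since the HET spot was not above background. It was -3.28 log2 units or lower without normalization and -1.67 or lower after quantile normalization. Its rank was 55 of 100 in WT and 95 in HET. At day 14 it sat near the middle of the measured array-wide shift, at -2.10 against the median of -2.04, and its rank was 46 in WT and 36 in HET. Of the 79 genes behind that median, 35 were above background in WT only. Their measured differences may understate the shift. Quantile normalization accordingly gave 0.59, in the other direction from the densities. The authors' deposited ratios to Actb, filled for both arrays at that day, were 0.0283 in WT and 0.00619 in HET, which is -2.20 on the log2 scale.

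Vegfc, the lymphatic growth factor gene, was above background on 2 of 6 arrays. Its densities in WT were 54.3, 148 and 2199 at days 7, 10 and 14. In HET they were 217, 169 and 129. The WT array at day 14 was the only one on which it clearly exceeded background, at 5.88 times the brightest control spot, and the HET value at day 10 passed its limit by 1.04 times. WT at day 14 stood apart from the other 5 values, which ranged from 54.3 to 217.

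At day 14 the HET spot was not above background, so the difference has only a bound. It was -3.33 log2 units or lower without normalization and -0.30 or lower after quantile normalization. The rank was 39 in WT and 51 in HET. At day 10 the WT value lay at 0.302 times its brightest control spot, the ranks were 99 and 90, and no bound could be given.

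**Figure D2:**
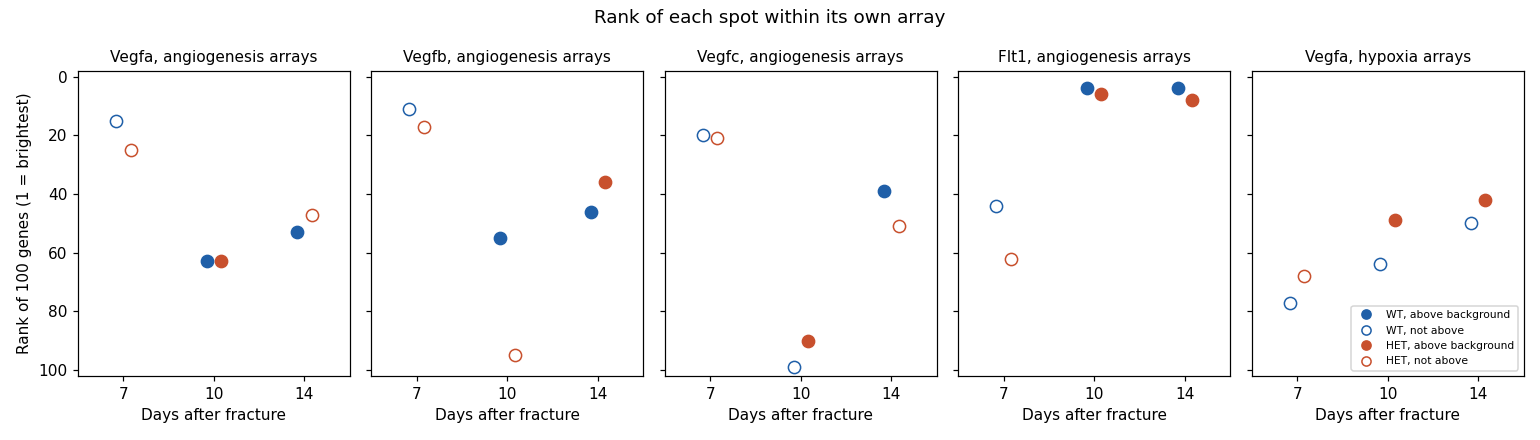
Rank of each spot by density among the 100 genes of its own array (axis reversed, 1 at the top), by day and genotype, 1 array per point, filled where the spot was above background. Vegfb at day 10 shows the widest gap between genotypes, 55 in WT and 95 in HET, and Flt1 moves from 44 and 62 at day 7 to between 4 and 8 later.

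Flt1 went from background to the ceiling between day 7 and day 10 in both genotypes. The WT densities were 35.0, 49686 and 49470 in order of day, and those in HET were 152, 48633 and 42065. At day 7 all 6 control spots of either array were brighter than Flt1. At day 10 the spot was 101 times as bright as the brightest control spot in WT and 300.0 times in HET, and at day 14 132 and 221 times.

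The HET array at day 14, at 82.8% of the highest density, held the only later Flt1 value under the ceiling. It was dimmer than the WT value by 1.18 times, against a WT spot that was itself at the ceiling, so the true ratio has only a bound. Without normalization the day 14 difference was -0.23 log2 units, smaller than the standard deviation of repeat spots of the reference genes on 1 array (0.33, pooled over 27 sets). Those sets held only spots above background and under the ceiling, so they do not give the spread of ceiling spots. Quantile normalization stretched the Flt1 difference to -2.16, since ranks 4 and 8 lie far apart in the shared distribution. Scaling each array to its median turned it to 2.45. At day 10 both arrays were at the ceiling and no fold can be given. Flt1 stayed bright on the HET day 14 array, where 71 of 79 genes above background on 1 or both arrays, Flt1 among them, were dimmer than in WT.

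The day differences were tested with limma over the 6 angiogenesis arrays, with genotype in the model. The p-values were adjusted by Benjamini-Hochberg over the 96 genes that exceeded background at least once. Flt1 was higher at day 10 than at day 7 by 7.14 log2 units with a standard error of 0.66 (adjusted p = 0.0028), and both genotypes moved that way. It was higher under each other scaling as well, by 5.74 to 10.19 units, with adjusted p-values from 5.07e-05 to 0.0056. Since neither day 7 value was above background, the size is a bound, at least 2.36 log2 units (5.13-fold) on the normalized scale and at least 7.17 units (144-fold) without normalization. Both day 10 values were at the ceiling. With one day at background and the other at the ceiling, the standard error and p-values may understate the spread of Flt1. In this contrast 17.7% of the genes tested were higher at day 10 and 14.6% lower. Without normalization 29.2% were higher and 0% lower. The unnormalized bound includes the general rise in brightness: the median gene spot density went from 34.1 to 1738 in WT and from 163 to 589 in HET.

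Flt1 shared its rise from background with many genes and its ceiling values with few. Without normalization the growth factor gene Tgfb3 was 9.50 log2 units higher at day 10 than at day 7. The macrophage marker Msr1 was 9.35 higher and Flt1 9.28. Of the 88 genes below background on both day 7 arrays, 30 were above it on all 4 later arrays, and 4 reached the ceiling on 3 or 4 of these: Flt1, the fibroblast growth factor gene Fgf7, the hepatocyte growth factor gene Hgf and the thrombospondin gene Thbs1. Fgf7, Hgf and Thbs1 fall outside the naming rule and were picked after their values were seen. Fn1, the fibronectin gene, whose spot follows Flt1 in the list of positions, went from 48.9 and 692 at day 7 (WT, then HET) to 44692 and 32102 at day 10, and to 43946 and 15099 at day 14. Kdr, which precedes Flt1 in that list, stayed at 1051 or less on all 6 arrays. The physical layout of the spots is not known here, and a part of neighbouring spots in the Flt1 signal was not tested.

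The same fit gave the ligands a negative sign from day 7 to day 10: -3.63 for Vegfa (adjusted p = 0.018), -5.14 for Vegfb (adjusted p = 0.0074) and -5.14 for Vegfc (adjusted p = 0.0049). These values are not read as a fall. All the day 7 ligand values were below background, yet they ranked between 11 and 25 of 100 on arrays where only 9 and 12 genes were above it. Quantile normalization thus gave these dim spots the same levels as genes of those ranks on the later arrays. Without normalization the differences were 2.02, 0.81 and 0.09 log2 units with adjusted p-values of 0.20, 0.63 and 0.97. Vegfa then has a bound, at least 0.53 units (1.45-fold) higher at day 10. With the arrays scaled to their reference genes, Vegfa alone of the ligands passed, at 2.93 (adjusted p = 0.048). Under that scaling 68 of the 96 genes were called. Scaling each array to its median kept the negative sign, at -1.52 for Vegfa (adjusted p = 0.080), -2.73 for Vegfb (adjusted p = 0.033) and -3.45 for Vegfc (adjusted p = 0.015), and the median gene of either day 7 array was itself below background. No bound could be given on the quantile or the median scale. Between days 10 and 14 the test called 0% of the 96 genes, with 7 at an unadjusted p under 0.05, among them Vegfc at 2.70 with a standard error of 0.68 (adjusted p = 0.35). The WT density went from 148 to 2199 and the HET density from 169 to 129.

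On the hypoxia arrays 0% of 73 genes were called between days 7 and 10, and between days 10 and 14 6.85% were higher and 9.59% lower. Vegfa was not among them, at 0.67 with a standard error of 0.26 (adjusted p = 0.28) and 0.49 with a standard error of 0.26 (adjusted p = 0.30).

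The genotype difference over the 3 days was tested in the same limma fits, with day as a block. The test called 0% of the genes on either array type, with 2 of 96 and 3 of 73 at an unadjusted p under 0.05, and none of those was one of the 4 genes. On the angiogenesis arrays the difference was -0.46 for Vegfa (95% interval -1.97 to 1.05), -0.91 for Vegfb (-2.57 to 0.75), 0.11 for Vegfc (-1.30 to 1.52) and -1.22 for Flt1 (-2.58 to 0.15). The adjusted p was 0.87 for Vegfa, Vegfb and Flt1 and 0.97 for Vegfc. On the hypoxia arrays Vegfa was at 0.52 (-0.14 to 1.18, adjusted p = 0.75). The intervals reach well past 2-fold in 1 or both directions for all 4 genes on the angiogenesis arrays.

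At single days there was no test. Among genes with a value or a bound after quantile normalization, 21.1% of 76 were at least 2-fold apart between genotypes on the angiogenesis arrays at day 10 and 21.7% of 46 at day 14, against 27.1% of 48 and 33.3% of 45 on the hypoxia arrays. Vegfb at day 10 and Flt1 at day 14 were the only values of the 4 genes past 2-fold. Of these, Vegfb was below 0 under each scaling tried at that day and Flt1 was not. Vegfa at day 10 on the hypoxia arrays was past 2-fold without normalization and with reference gene scaling.

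**Figure D3:**
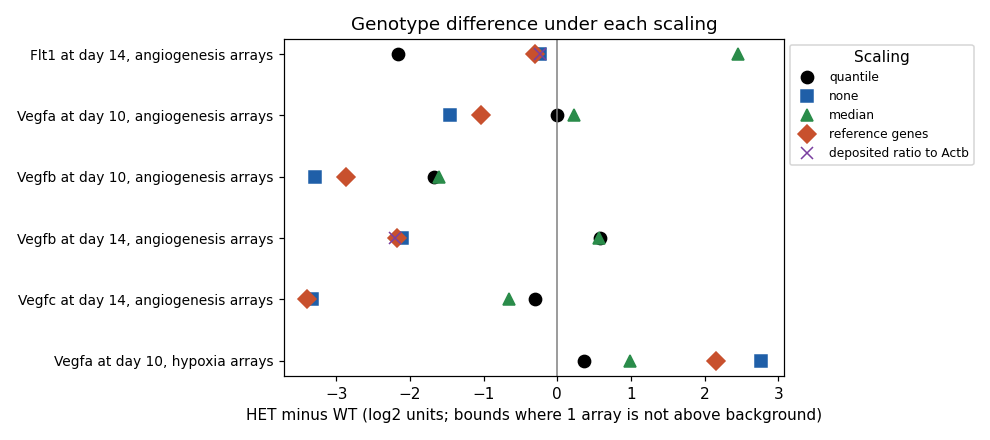
HET minus WT difference in log2 units (x axis) for each gene, day and array type that has a value or a bound, 1 pair of arrays per line, under quantile normalization, none, median scaling, reference gene scaling and the deposited ratios to Actb. Vegfb at day 10 and Vegfc at day 14 stay left of 0, Vegfa at day 10 on the hypoxia arrays stays right of 0, and the others cross it.

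Of 17 other VEGF pathway genes listed, 6 have a spot on the angiogenesis arrays. The ligand genes Pgf and Figf (now Vegfd) were dim, with Pgf above background on 0 of 6 arrays and Figf on 1, WT at day 14, at a density of 418 against 18.3 in HET. The co-receptor gene Nrp1 was above background on 0 arrays. Kdr, the main signalling receptor, was above background only at day 10, with 1051 for WT and 497 for HET. Nos3, the endothelial nitric oxide synthase gene, which acts downstream of VEGF receptors, was at 3352 and 2399 in WT and at 720 and 215 in HET at days 10 and 14, and at 23.3 and 141 at day 7.

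Between days 7 and 10, 0 of the 4 tested genes of this list were higher and 1 lower, against 17.7% and 14.6% of all genes tested. For genotype 0 passed, against 0% of all. The lower one was Hif1a, at -4.14 (adjusted p = 0.0049), but without normalization it was at -0.68 with an adjusted p of 0.60. Kdr was at 0.13 (adjusted p = 0.95) after quantile normalization and at 3.94 (adjusted p = 0.040) without it. The list's median genotype difference was -0.23, against 0.04 over all genes tested. On the hypoxia arrays the list has Hif1a and Epas1, and Epas1, the HIF-2alpha gene, was above background on 0 of 6.

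Of the 7 endothelial markers, Cdh5, which encodes the junction protein VE-cadherin, and Tek, the angiopoietin receptor gene, were higher at day 10 than at day 7, at 3.14 (adjusted p = 0.014) and 2.56 (adjusted p = 0.021). Edg1 (now S1pr1) had a negative sign, -4.78, from day 7 values below background. These are 2 of 7 higher and 1 lower, against the same 17.7% and 14.6%. Without normalization 3 were higher and 0 lower, against 29.2% and 0% of all genes tested. Tek reached 10956 in WT at day 10, and Pecam1 2113. The part of endothelial cell number in the Flt1 course was not tested. The macrophage markers Msr1 and Cd36 were also higher at day 10, by 5.46 (adjusted p = 0.0049) and 3.66 (adjusted p = 0.017). Of the 2 bone-forming cell markers on these arrays, 0 were higher and 1 lower after quantile normalization, against 17.7% and 14.6% of all. Without normalization 1 was higher and 0 lower, against 29.2% and 0%. The called gene was Spp1 both times. It was below background at day 7, at 61.3 in WT and 251 in HET, and reached 3653 and 1606 at day 10.

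**Figure D4:**
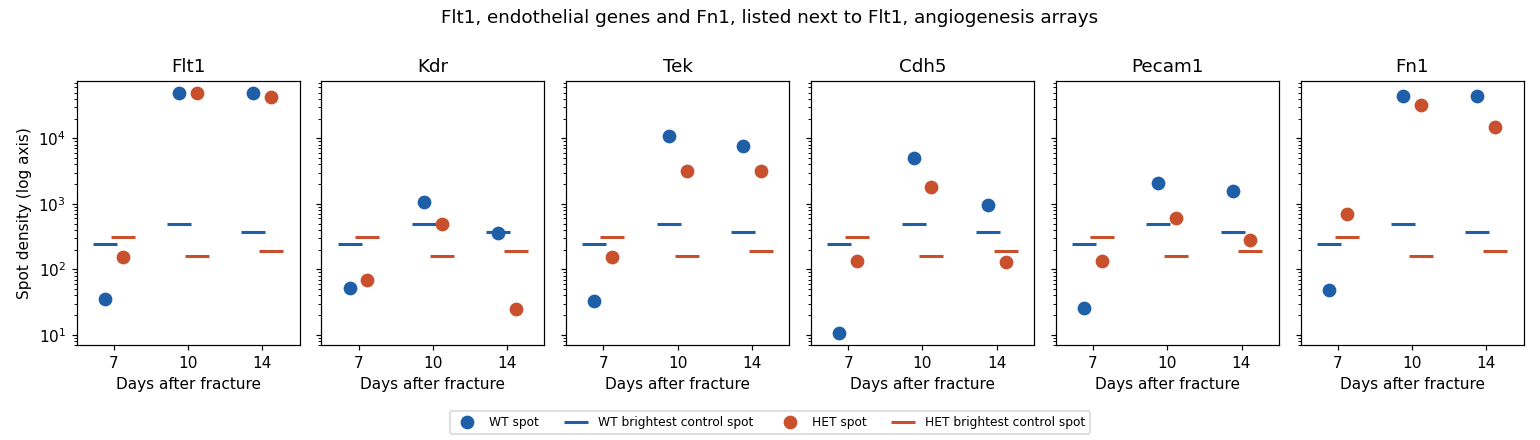
Spot density on a log axis for Flt1, 4 endothelial genes and Fn1 on the angiogenesis arrays, by day and genotype (1 spot on 1 array per point), with the brightest control spot of each array as a bar. The 4 endothelial genes stay at or below 10956, while Flt1 lies between 42065 and 49686 at days 10 and 14. Of the 7 endothelial markers, Tie1, Eng and Edg1 are not drawn. None of them exceeded a density of 702 on these arrays.

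The genes most like each member were taken by Pearson's r of normalized log2 values over the 6 angiogenesis arrays, among 70 or 71 other genes above background on at least 3 arrays. They share the arrays and the normalization, so r is only a description. For Flt1 these were Tek (0.99), Nos3 (0.98) and the growth factor gene Tgfb3 (0.98), with r of 0.98, 0.84 and 0.997 without normalization. Without it they ranked 9, 32 and 5 of 70. The cytokine gene Tnf stood among the 3 nearest genes of each ligand, at 0.95 for Vegfa, 0.95 for Vegfb and 0.92 for Vegfc, and at 0.92, 0.88 and 0.87 without normalization. By these latter values Tnf ranked 24 of 70 for Vegfa, 2 of 70 for Vegfb and 1 of 71 for Vegfc. The others were mostly reference genes whose likeness did not outlast the normalization. Gapdh had r of 0.95 with Vegfa, 0.95 with Vegfb and 0.92 with Vegfc, and -0.62, -0.08 and 0.01 without it. Rpl13a was at 0.95 with Vegfa and Ppia at 0.97 with Vegfc, against 0.68 and 0.23.

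Vegfa was itself the third nearest gene to Vegfb, at 0.94 and at 0.78 without normalization. Vegfa and Vegfc had r of 0.87 and 0.66. Flt1 against the ligands turned sign with the scaling, from -0.92, -0.88 and -0.85 for Vegfa, Vegfb and Vegfc to 0.76, 0.45 and 0.37 without normalization. The nearest genes to Vegfa on the hypoxia arrays, of 40 compared, were Il6st (0.92), which encodes the shared receptor subunit of the IL-6 family, Rpl13a (0.78) and Gapdh (0.75). Without normalization r was 0.83, 0.81 and 0.67. Vegfa was above background on 2 of these 6 arrays.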

How the data were processed

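Density was measured on 12 arrays of 112 spots, 6 for hypoxia genes and 6 for angiogenesis genes. Per the labels' protocols, 3 ug of RNA pooled from 3 animals was labelled with biotin by AmpoLabeling-LPR. The deposited scanner values are average spot densities on a linear intensity scale without local background, per the file headers. The sources used here do not name the image software. The authors deposited a ratio per spot, which matched (density minus the array's lowest) over (mean Actb density minus that lowest) within 1% for every filled value. Of the 2 files of the angiogenesis HET day 7 sample, the one headed as WT day 7 equals that array in 112 of 112 spots and was not used.

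Intensities were corrected with normexp (limma 3.58.1, R 4.3.3) with an offset of 25.9, 10% of the median gene spot density, taken to log2, averaged per gene and quantile normalized per array type. Where only 1 array of a pair exceeded background, the other is set at the higher of its own value and the dimmest gene above background there. The limma fits have 2 residual degrees of freedom per gene. The 3 days stand in for repeats in the genotype contrast, and the WT and HET arrays do so in the day contrasts. The p-values measure only the spread left after day and genotype. The genotype contrast was tested on simulated data with independent noise and no day effect. That test does not bear on the genotype values above. Named genes are the 4 members, 3 nearest genes each, and listed pathway and marker genes. The members and lists were chosen with earlier results of these data known. Alternatives were other scalings, offsets, filters, thresholds and days left out. Listed cartilage and muscle markers have no spot on these arrays. The list of bone-forming cells has Sparc, Spp1 and Col1a1 on them.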

Additional observations from a re-analysis of the deposited data

Results flagged for a closer look

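Vegfb on the angiogenesis arrays differed between genotypes in opposite directions at the 2 later days after quantile normalization, by -1.67 log2 units or lower (HET minus WT) at day 10 and by 0.59 at day 14. With 1 array per genotype and day the change between days was not tested. The densities had HET below WT at both days.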

How the results depend on the processing

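On 1 array per group, brightness limits what these values show: the ligands lay within 5.88 times the brightest control spot, and Flt1 lay near the ceiling at days 10 and 14. The cause of each change below was not tested.

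The Vegfa difference at day 10 on the angiogenesis arrays was -1.45 without normalization and -1.04 with reference gene scaling. Vegfb at day 10 was at -3.28 and -2.87 under these 2 settings and at -1.33 without background correction. At day 14 Vegfb was at -2.10 and -2.18, and at -2.20 by the deposited ratios. Vegfc at day 14 was at -3.33 and -3.40, and at -0.65 with median scaling. Flt1 at day 14 was at -0.23 and -0.31, at -0.23 by the deposited ratios, and turned to 2.45 with median scaling. Vegfa at day 10 on the hypoxia arrays was at 2.77 and 2.16, and at 0.99 with median scaling.

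The genotype effect over the 3 days turned sign for Vegfa with median scaling (0.14) and without day 7 (0.17). For Vegfc it turned without normalization (-0.95), with reference gene scaling (-0.94), without background correction (-0.046) and without day 10 (-0.38). For Flt1 it turned without normalization (0.22), with median scaling (1.31) and with reference gene scaling (0.24). The lowest adjusted p of these was 0.52, and 0 genes were called under any alternative.

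Day 10 minus day 7 turned without normalization and with reference gene scaling for Vegfa (2.02 and 2.93), Vegfb (0.81 and 1.72) and Vegfc (0.091 and 0.998), and for Vegfa on the hypoxia arrays with median scaling (-0.92). Day 14 minus day 10 turned for Vegfa under the first 2 settings (-0.22 and -1.16 on the angiogenesis arrays, -1.78 and -1.33 on the hypoxia arrays) and for Flt1 with median scaling (0.96). Flt1 from day 7 to day 10 passed under all 7 alternatives.

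Counts of called genes from day 7 to day 10 were 68 in place of 31 with reference gene scaling on the angiogenesis arrays. For the hypoxia arrays they were 38 without normalization, 19 with median scaling, 26 with reference gene scaling and 2 among genes above background on at least 3 arrays, in place of 0. From day 10 to day 14 these were 33, 25, 39 and 4 in place of 12. Genes at least 2-fold apart between genotypes numbered 47 without normalization and 39 with reference gene scaling on the angiogenesis arrays at day 10, in place of 16, and 48, 30 and 50 at day 14 in the order none, median and reference genes, in place of 10. On the hypoxia arrays at day 10 they were 27, 24 and 28 in place of 13. Vegfa was above background on 1 of 6 hypoxia arrays, in place of 2, with 1 threshold for the array type or with the control median plus 3 median absolute deviations.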

Other observations

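The deposited ratios were filled for 14 of the 30 values of these genes, and filling did not follow brightness over the control spots. For Vegfa on the angiogenesis arrays a ratio (0.00128) is filled for WT at day 7, where the spot was dimmer than all 6 control spots, and is empty for WT at days 10 and 14, where the densities of 834 and 1004 were above background.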
